A study of Drosophila melanogaster with 2 samples.

Results

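Of the 5033 Abd-B-GFP peaks that passed the authors' threshold on the irreproducible discovery rate (IDR), 1390 lay at the promoter of a single protein-coding gene (27.6%, 95% Wilson interval 26.4 to 28.9%). A peak was counted when its summit, the base of highest signal, lay at most 500 bp from an annotated transcription start site (TSS) of exactly 1 protein-coding gene on the chromosome arms 2L, 2R, 3L, 3R, 4 and X. The 1390 peaks belonged to 1273 genes. The bases that meet this rule make up 9.97% of the arms, so summits fell there 2.77 times as often as an even spread over the arms would give. The other IDR peaks were 926 at promoters shared by 2 or more protein-coding genes, 128 at TSSs of noncoding genes, 1831 farther inside genes and 758 between genes.

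The peaks come from chromatin immunoprecipitation and sequencing (ChIP-seq) of whole Drosophila melanogaster embryos aged 4 to 20 h, in 2 biological replicates of 1 group. The embryos were of a stable transgenic line, Abd-B-GFP, that carries a C-terminal GFP fusion of Abd-B, and the precipitating antibody was raised against GFP. The sources used here do not say what drives the fusion, and untagged embryos were not analysed here. In whole embryos, binding in few cells and weak binding in many cells cannot be told apart.

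Abd-B is the most posterior of the fly's Hox proteins, homeodomain transcription factors that give segments their identity along the body axis. It acts in the posterior abdomen, where it shapes the genitalia, the posterior spiracles, the hindgut and the gonad. Hox proteins are best known for acting through enhancers far from genes, while many fly promoters are organised by other factors: DREF, which binds the DNA replication-related element (DRE), M1BP, which binds Motif 1, both frequent at promoters of housekeeping genes, and GAGA factor, frequent at promoters of developmental genes.

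The promoter windows of the 4 strongest peaks that allow a printed window are shown first, because they are the sequences with the highest signal. Each is 150 bases read 5′ to 3′ on the strand of the gene, holds the summit, lies upstream of the TSS and outside annotated transcripts, and comes from the RefSeq genome sequence of the dm6 assembly. Capitals mark the DRE (TATCGATA), Motif 1 (GGTCACAC), the Abd-B forms TTTATTG and TTTATGG and the Hox core TAATTA, on either strand. The window of CG14100 is chr3L:19590545-19590694, minus strand. That of Ugalt, the UDP-galactose transporter gene, is chrX:2703853-2704002, minus strand. The CG31145 window is chr3R:23669780-23669929, minus strand, and the window of msi, which encodes the RNA-binding protein Musashi, is chr3R:25515841-25515990, plus strand. None of the 4 holds any of these motifs.
CG14100: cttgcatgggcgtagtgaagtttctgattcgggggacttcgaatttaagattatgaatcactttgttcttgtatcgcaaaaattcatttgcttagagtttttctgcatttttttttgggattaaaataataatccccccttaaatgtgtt
Ugalt: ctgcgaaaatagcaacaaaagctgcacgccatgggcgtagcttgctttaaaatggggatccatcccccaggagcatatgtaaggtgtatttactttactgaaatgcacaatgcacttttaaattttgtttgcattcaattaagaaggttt
CG31145: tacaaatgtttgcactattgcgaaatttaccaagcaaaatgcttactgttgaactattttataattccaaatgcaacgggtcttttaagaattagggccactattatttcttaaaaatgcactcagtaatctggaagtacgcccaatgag
msi: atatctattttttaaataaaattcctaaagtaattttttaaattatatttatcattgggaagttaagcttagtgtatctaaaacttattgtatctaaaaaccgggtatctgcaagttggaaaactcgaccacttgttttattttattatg

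The next windows are the strongest printed ones that hold a DRE, Motif 1 or an Abd-B form, shown so that the motifs counted later can be seen in place. Some stronger peaks have such a motif within 100 bp of the summit but are not printed. Among them are PlexA (rank 82, a DRE) and Gapdh2 (rank 53, both Abd-B forms). Remo (chrX:13287901-13288050, plus strand) was ranked 382 and holds a DRE and a Hox core. Dpm3 (chr3R:13403188-13403337, minus strand), a subunit gene of the enzyme that makes dolichol-phosphate mannose, was ranked 780 and holds Motif 1. Hpf1 (chr3R:5791689-5791838, plus strand), a histone PARylation factor gene, was ranked 90 and holds the Abd-B form TTTATTG on the opposite strand. C1GalTA (chr2L:8951285-8951434, minus strand), a galactosyltransferase gene, was ranked 150 and holds TTTATTG beside a Hox core.
Remo: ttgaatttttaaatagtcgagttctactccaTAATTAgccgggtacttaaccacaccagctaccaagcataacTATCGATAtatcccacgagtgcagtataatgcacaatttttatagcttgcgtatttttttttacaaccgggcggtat
Dpm3: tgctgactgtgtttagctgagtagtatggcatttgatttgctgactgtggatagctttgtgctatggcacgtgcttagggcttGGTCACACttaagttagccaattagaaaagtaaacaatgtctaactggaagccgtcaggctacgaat
Hpf1: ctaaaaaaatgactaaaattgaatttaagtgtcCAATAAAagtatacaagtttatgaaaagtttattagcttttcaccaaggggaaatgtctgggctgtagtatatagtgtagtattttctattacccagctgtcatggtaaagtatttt
C1GalTA: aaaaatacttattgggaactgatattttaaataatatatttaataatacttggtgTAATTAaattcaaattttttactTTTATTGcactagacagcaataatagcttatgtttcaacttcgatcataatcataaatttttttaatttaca

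The summits lay on the upstream side of the TSS and close to it. Of the 1390, 1215 were upstream of the nearest TSS of their gene (87.4%, 85.6 to 89.1%) and 175 were downstream. Upstream bases make up 45.2% of the bases that the rule admits, and they carried 202 peaks per Mb, while downstream bases carried 24.0 per Mb. In the median the summit lay 151 bp before the TSS, and the middle range between the quartiles was 258 to 64 bp before it. A summit within 100 bp of the TSS was found for 399 peaks (28.7%) and one within 250 bp for 961 (69.1%). The study has 1 group of 2 replicates and no control group to compare, so these shares are given without a test, and the intervals cover counting error only.

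Most summits were upstream in each replicate as well. Matched summits lay a median of 9 bp (replicate 1) and 8 bp (replicate 2) from the IDR summits. Their shares therefore follow those of the IDR list by construction. At the summits of replicate 1 that matched within 100 bp, 86.3% of 1326 peaks were upstream, and at those of replicate 2, 87.3% of 1343. Means over the matched summits of the replicates were 86.8 ± 0.755% upstream and a median distance of 170 ± 3.89 bp (SD, n = 2). Taken from each replicate's own 5033 strongest peaks, without the IDR list, the rule gave 1401 peaks in replicate 1, of which 84.4% were upstream, and 1374 peaks in replicate 2, of which 87.5% were upstream. Members just inside the limit were CG10479 (499 bp upstream, rank 271), CG8128 (498 bp downstream, rank 542) and Cdk4 (498 bp upstream, rank 4156). Summits just outside were those at Pp2C1 (501 bp downstream, rank 1286), nrv2 (501 bp downstream, rank 3893) and CG9981 (502 bp upstream, rank 1906).

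**Figure D1:**
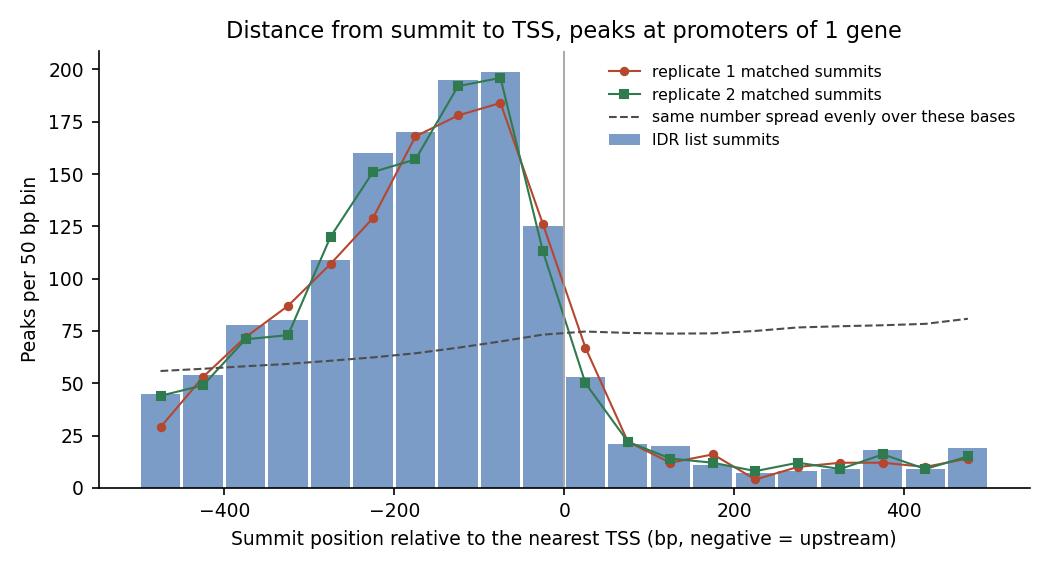
Number of single-gene promoter peaks per 50 bp bin (vertical axis) by position of the summit relative to the nearest TSS (horizontal axis, bp, negative is upstream); bars are the IDR summits, lines with points are the matched summits of each replicate, and the dashed line spreads the same number evenly over the bases the rule admits. The fullest bin, 100 to 50 bp upstream, holds 199 peaks, and the count drops to 53 in the first 50 bp downstream and to 21 in the next 50 bp.

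The annotation at the summit base differed by side. Of the 1215 upstream summits, 768 (63.2%) lay between genes, 283 in an intron of the same gene upstream of an inner TSS, 58 in an intron and 27 in an exon of another protein-coding gene, 47 in a 5' UTR of the same gene, 31 in a noncoding gene and 1 in coding sequence of the same gene. Of the 175 downstream summits, 110 (62.9%) lay in the gene's own 5' UTR, 58 in its introns and 7 in its coding sequence. Besides their protein-coding gene, 90 of the 1390 peaks lay within 500 bp of the TSS of a noncoding gene. A further IDR summit farther inside the gene was present at 290 of the 1273 genes (22.8%).

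The authors' signal value, of unstated scale and used to rank peaks within a list, was 277 in the median of these peaks, 153 at the weakest and 5202 at the strongest. Their median rank in the IDR list was 2296.5, against 1776.5 for peaks at shared promoters, 2334 at noncoding TSSs, 2849 inside genes and 3041 between genes. The order of these medians was the same in each replicate list, where the single-gene peaks had a median rank of 2294.5 in replicate 1 and 2297 in replicate 2, against 1714 and 1749.5 for shared promoters. Divided by rank into 4 parts of 347 or 348 peaks, the share upstream was 91.1% in the strongest part, 88.8% and 89.05% in the middle parts and 80.7% (76.3 to 84.5%) in the weakest. The GC content of the 201 bp around the summit was 33.9 ± 6.36% in the strongest part and 37.2 ± 8.10% in the weakest (SD over peaks).

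The strongest single-gene promoter peak of the list was that of CG14100 (FBgn0036889, 3L 19590433 to 19590816), with its summit 96 bp upstream and rank 1 in the IDR list and in both replicates. That of mRpL41 (FBgn0034001, 2R 15217569 to 15217935), a gene of the large mitochondrial ribosomal subunit, was ranked 3 in all 3 lists, with its summit 146 bp upstream. Ugalt (FBgn0024994, X 2703702 to 2704074) had its summit 39 bp upstream and ranks of 4, 4 and 6 in the IDR list, replicate 1 and replicate 2. These 3 promoters were the strongest of their kind in the IDR list and in replicate 1, and in replicate 2 a peak of ph-p, ranked 5, stood before Ugalt.

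Next in strength were peaks at genes of varied function. The peak of ph-p, a gene of Polycomb repressive complex 1, was ranked 6, and its summit lay 486 bp upstream of an inner TSS, near the edge of the window. For px, a gene needed for wing vein patterning, rank 10 was found in the IDR list and in both replicates, 211 bp upstream. PNPase, which encodes polynucleotide phosphorylase, was ranked 11 and was the strongest downstream peak, 75 bp into the 5' UTR. The peak of cu, a gene of the Nocturnin deadenylase family, was ranked 20 and lay 314 bp upstream, over an exon of another gene. The others of the 20 strongest were CG31145 (rank 21), msi (22), CG18549 (26), larp, a La-related RNA-binding protein gene (30), GstE13, a glutathione S-transferase gene (32), SLC5A11 (33), the bZIP factor gene Atf3 (36), CG1888 (39), CG11857 (40), CG13501 (41), the endocytosis gene Rme-8 (46), the prolyl isomerase gene Fkbp14 (49) and a further ph-p peak (52). Downstream summits were rare among them: PNPase, GstE13 (61 bp) and that ph-p peak (465 bp) were the only 3 of the 20.

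Nearly all of the 1390 peaks had a counterpart in both replicates, which is favoured in advance because the IDR list was made from both. A summit within 100 bp was found in both full replicate lists for 1282 peaks (92.2%, 90.7 to 93.5%), in replicate 1 only for 44, in replicate 2 only for 61 and in neither for 3. The same share was 90.6% (88.6 to 92.3%) at shared promoters, 93.0% (87.2 to 96.3%) at noncoding TSSs, 92.5% (91.2 to 93.6%) inside genes and 92.3% (90.2 to 94.0%) between genes, and these intervals overlap. The full lists hold about 30000 peaks each, many of them weak. With a partner at q of 0.05 or less demanded in both, the share was 73.5% for the single-gene peaks. It was 80.2% at shared promoters, 74.2% at noncoding TSSs, 65.4% inside genes and 62.5% between genes, classes that also differ in rank. For the single-gene peaks it was lower in replicate 1 (76.3%) than in replicate 2 (96.3%). In their 4 parts by rank, the share with such a partner in both was 99.1%, 90.8%, 71.5% and 32.8%, from the strongest to the weakest.

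For peaks found in both replicates, positions and ranks lay close together. The summits of the replicates were a median of 17 bp apart, with quartiles of 6 and 41 bp. The ranks had a Spearman rho of 0.80 across 1282 peaks, taken from a list made from both replicates and chosen for a summit in each. They lay within 2-fold of each other for 1043 peaks (81.4%). More than 4-fold apart were 28 peaks, of which 24 ranked better in replicate 2 and 4 in replicate 1. The best ranked peaks with no partner were those of bowl, a zinc finger gene of the odd-skipped family (rank 790, rank 794 in replicate 1), CG18528 (914 and 791) and sotv, a heparan sulfate synthesis gene (998 and 1039), and all 3 lacked a summit within 100 bp in the replicate 2 list.

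**Figure D2:**
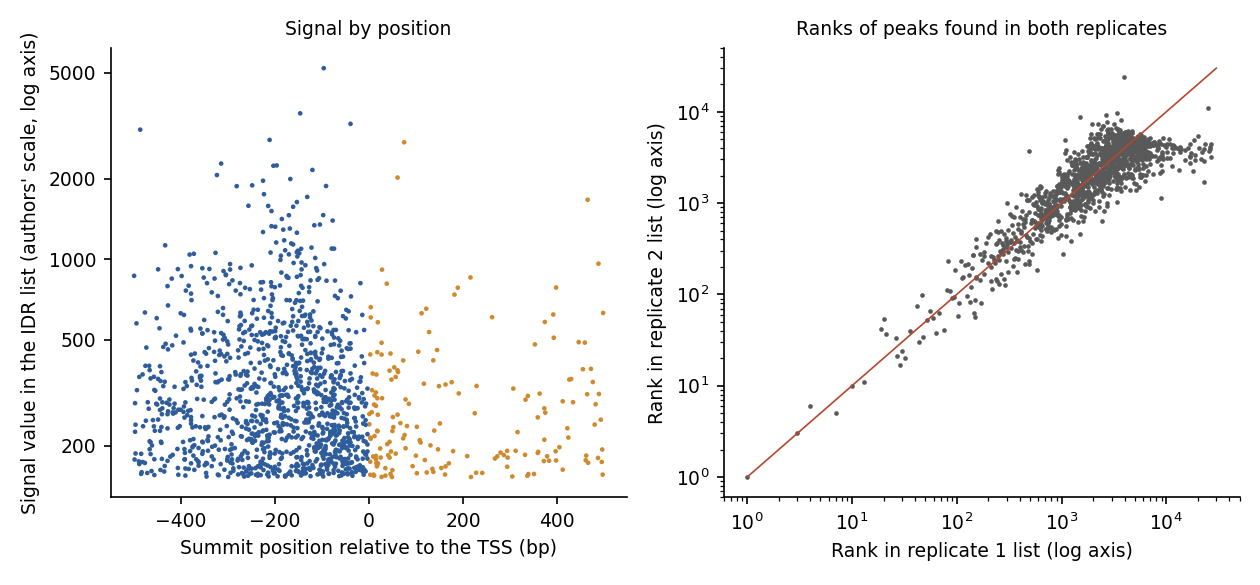
Left, signal value of each single-gene promoter peak (authors' scale, log axis) by summit position relative to the TSS (bp), with upstream summits in blue and downstream ones in orange; right, rank in replicate 2 against rank in replicate 1 (log axes) for the 1282 peaks found in both, with the line of equal rank. The strongest downstream peak is ranked 11, and the ranks of the replicates have a Spearman rho of 0.80.

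Genes with several TSSs and long genes had such a peak most often. Of all 13945 protein-coding genes, 9.13% had a peak at a promoter of their own and 13.1% had one at a promoter shared with another gene; 58 genes had both. The share with a peak of their own was 5.90% (605 of 10246) for genes with 1 TSS, 13.4% for 2 TSSs, 25.3% for 3 or 4 and 44.2% (84 of 190; 37.3 to 51.3%) for 5 or more. It was 2.75% in the shortest of 4 equal groups of genes, up to 1179 bp, and 18.8% in the longest, from 4999 bp. Each added TSS widens the bases that can hold a summit, and the part of that widening in these shares was not tested. Genes with a single-gene peak had a median length of 5236 bp and several TSSs in 52.5% of cases, against 2556 bp and 35.2% for genes with a shared peak and 2166 bp and 26.5% for all genes.

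Neighbours matter to the rule, since bases within 500 bp of the TSSs of 2 genes cannot hold a peak of either gene alone. Among the 7960 genes with no other protein-coding TSS within 1000 bp, 990 had one (12.4%), while 283 of the other 5985 did (4.73%). The X chromosome had the largest share of its genes with a peak, 256 of 2196 (11.7%, 10.4 to 13.1%), against 8.31 to 9.27% on the other large arms and 1 of 80 on chromosome 4. Genes of the X also had several TSSs more often, in 31.1% of cases against 22.8 to 27.7% on the other large arms. Among isolated genes with 1 TSS the X share was 9.19%, beside 7.54 to 9.14% on the other large arms, and among isolated genes with several TSSs it was 31.3% (26.7 to 36.3%), beside 23.0 to 25.5%.

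**Figure D3:**
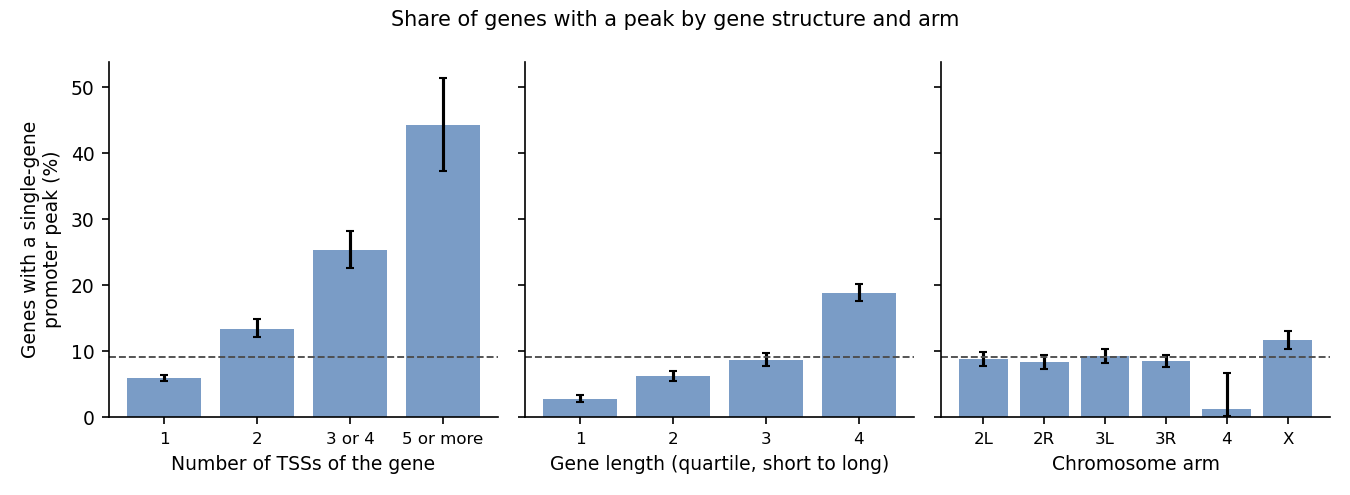
Share of protein-coding genes with a single-gene promoter peak (vertical axis, %) by number of TSSs, by gene length in 4 equal groups from short to long, and by chromosome arm; bars are shares, whiskers 95% Wilson intervals for counting only, and the dashed line is the share over all genes, 9.13%. The share is 5.90% for genes with 1 TSS and 44.2% for those with 5 or more.

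At genes whose TSSs spread over more than 500 bp, a minority of peaks lay at the outermost promoter, though a larger share than that of TSSs placed there. The rule leaves out bases near the TSS of a neighbouring gene, and its part in this share was not tested. Of 591 such peaks, 240 (40.6%, 36.7 to 44.6%) had as nearest TSS the most upstream one or one within 100 bp of it, while 31.7% of the TSSs of these 497 genes were so placed. The share was 35.4% in the strongest of the 4 parts by rank and 45.6% (37.1 to 54.3%) in the weakest.

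More than 1 such peak was found at 94 genes: 79 with 2, 9 with 3, 4 with 4 and 2 with 5. The genes with 5 were Ptpmeg2, a tyrosine phosphatase gene with 6 TSSs, and Abd-B itself, also with 6 TSSs. Those with 4 were ph-p, the reticulon gene Rtnl1, the glycolysis gene Pgk and SNF4Agamma, which encodes the gamma subunit of AMP-activated kinase. With 3 came larp, brwl, the EGFR ligand gene spi, the cAMP phosphodiesterase gene dnc, l(3)neo38, shep, the moesin gene Moe, the tropomyosin gene Tm1 and the engulfment gene ced-6. At some of these genes, among them Abd-B, ph-p and ced-6, 2 peaks had the same nearest TSS. Over these 15 genes the best rank ran from 6 at ph-p to 2201 at ced-6.

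At Abd-B the peaks were of moderate strength and spread over the gene on 3R. The strongest (16960215 to 16960419) had its summit 48 bp upstream of an inner TSS and was ranked 520 in the IDR list, 339 in replicate 1 and 729 in replicate 2. Around the TSS at 16944273 lay 2 peaks, with summits 231 and 435 bp upstream; the first was ranked 764 (468 in replicate 1 and 1089 in replicate 2), and the second was ranked 4751, with rank 1673 in replicate 1 and no partner in replicate 2. The remaining 2 lay 6 bp downstream of a TSS (rank 2399; 1073 in replicate 1 and 4910 in replicate 2) and 359 bp downstream of another (rank 2558; 2594 in replicate 1 and 2924 in replicate 2). The 4 with a partner in both replicates all ranked better in replicate 1.

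Genes were next grouped by function into 45 lists of 14 roles, with shares read against the 9.13% of all genes. Some genes stand in several lists and roles, among them bowl, fru and lola. Among genes that regulate development, transcription factors had a single-gene peak in 39 of 215 cases (18.1%, 13.6 to 23.8%), and 4.19% had a shared one. Of the 215 genes 194 were isolated, which leaves little room for a shared peak. Of these 194, 37 had a single-gene peak (19.1%), beside 12.4% of all isolated genes. The same share was 25% for isolated translation genes and 18.9% for isolated respiratory chain genes. From each replicate's own strongest peaks the share of the 215 genes was 17.7 ± 1.32% (SD, n = 2), against 9.02 ± 0.0558% over all genes. Of 74 homeobox and Pax genes other than the Hox genes 13 had one, led by NK7.1 (rank 230), Poxm, a Pax gene of the somatic muscles (296), and bcd, the anterior morphogen (1146). Of 52 basic helix-loop-helix genes 8 had one, among them the Notch target genes E(spl)m3-HLH (351) and E(spl)m7-HLH (1587) and the tracheal gene trh (1773). Nuclear receptors stood at 6 of 21, with the ecdysone-induced Eip75B (594), Hnf4 (771) and Hr78 (1563). The list of segmentation genes had 6 of 37, with org-1 (285), bowl (790) and the GATA factor gene pnr (1157), and neuroblast temporal and BTB zinc finger genes 3 of 18, with lola (705), SoxN (1998) and fru (2748). Hox genes had 2 of 8, Abd-B and Scr (3631, with no partner in replicate 2), and Hox cofactors 1 of 6, hth (3017).

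Signalling genes had a peak of their own in 25 of 143 cases (17.5%, 12.1 to 24.5%). In the EGFR and FGF pathways these were 9 of 29, with the ligand gene spi (rank 160), the FGF receptor adaptor gene stumps (1072) and the receptor gene htl (1284) first. The Notch pathway had 5 of 17, with numb (155), mib1 (1088) and neur (1416), which all act on Notch signalling between sister or neighbouring cells. The other pathways were Wnt and hedgehog (4 of 34, with the kinase gene sgg at 321, nkd at 1501 and Wnt6 at 3204), BMP and activin (1 of 22, babo at 4261) and JAK-STAT (1 of 11, the inhibitor gene Socs36E at 464), with intervals that overlap those of the Notch pathway. Hippo and growth control genes stood at 5 of 30, with app (1097), Mer (1358) and foxo (1582).

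Cell fate and tissue genes had one in 20 of 98 cases (20.4%, 13.6 to 29.4%). Several TSSs were annotated for 53.1% of these genes, 41.9% of the developmental transcription factors, 40.3% of the chromatin genes and 37.8% of the signalling genes, against 26.5% of all genes, and the part of TSS number in these shares was not tested. The cell fate lists hold organs that Abd-B is known to shape: hindgut and gonad genes had a peak in 5 of 15 cases, with bowl, fru and Sox100B (2878), and posterior spiracle genes in 3 of 16, with eyg (3180), crb (4184) and en (4860). Neuronal genes had 5 of 19, with elav (214), Nrx-1 (847) and Nrg (3155). Glial genes had 3 of 14, with moody (637), Gli (2300) and mdy (4700), a gene of triglyceride synthesis that the list holds too. Muscle structural genes had 3 of 21, with sls (540), Tm1 (1769) and Act87E (2265, with no partner in replicate 2), and cell death genes 1 of 13, hid (719). These lists hold 13 to 21 genes each, and their Wilson intervals overlap each other. Their genes bowl, drm, fru, eyg and en also count among the developmental transcription factors, so the peaks of these genes enter both shares.

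Chromatin and cell cycle genes also stood above the share of all genes. Chromatin genes had a peak of their own in 14 of 77 cases (18.2%, 11.2 to 28.2%), with the histone methyltransferase gene trx (rank 641), lola and the GAGA factor gene Trl (1675) first among trithorax genes, ph-p and esc (4911) among Polycomb genes, and BEAF-32 (1631), Trl and su(Hw) (1910) among insulator genes. Of their 20 summits, 11 were upstream (55%), and at the matched summits the share was 61.1% in replicate 1 and 52.6% in replicate 2. Cell cycle genes had one in 20 of 103 cases (19.4%, 12.9 to 28.1%), with Dp, the partner of E2F (352), the centrosome gene cnn (743) and the spindle checkpoint gene BubR1 (1413) first in mitosis, and grp (2144), PolA1 (2591) and spn-B (3007) first in replication and repair. From each replicate's own list the cell cycle share was lower, 15.05 ± 2.06% (SD, n = 2), and the chromatin share was 19.5% in each. A shared peak was present at 27.3% of chromatin genes and 27.2% of cell cycle genes, against 13.1% of all genes. Of isolated genes, 12 of 30 chromatin genes (40%) and 15 of 33 cell cycle genes (45.5%) had a single-gene peak. The share of all isolated genes was 12.4%.

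Within the translation machinery the lists parted. Cytoplasmic ribosomal protein genes had a single-gene peak in 22 of 91 cases (24.2%, 16.5 to 33.9%) and a shared one in 23, while mitochondrial ribosomal protein genes had a single-gene peak in 4 of 73 (5.48%, 2.15 to 13.3%) and a shared one in 29 (39.7%). The cytoplasmic peaks were of moderate rank, from RpS4 (724), RpL23A (757) and RpL30 (761) down to 4737. The 4 mitochondrial ones included mRpL41 (3), mRpL9 (434) and mRpL4 (1411). Translation factors had 9 of 62, with eIF6 (73), eIF3c (329) and eIF5B (931), and aminoacyl-tRNA synthetase genes had 0 of 35, which allows a share of up to 8.57% by the limit of 3 counts and 9.89% by the Wilson interval, and 11 had a shared peak. Of the isolated genes in these lists, 15 of 32 cytoplasmic and 2 of 13 mitochondrial ribosomal protein genes had a peak of their own.

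Most other housekeeping lists stood near or below 9.13% for peaks of their own and above 13.1% for shared ones. These were the respiratory chain (7 of 90 single, 19 shared), led by Cyt-c-p (279), UQCR-11 (528) and ND-AGGG (725), the vesicle traffic genes (8 of 111 single, 36 shared), led by deltaCOP (699), Rab5 (1059) and Vps15 (1229), the Mediator and general factors (6 of 60 single, 20 shared), led by MED21 (422), TfIIS (1002) and TfIIA-S (1922), and the proteasome (2 of 32 single, 10 shared), Rpn11 (1217) and Prosalpha5 (2799). Nucleoporins had 2 of 24 single and 9 shared, RNA polymerase subunits 1 of 30 and 9, splicing factors 4 of 41 and 11, and ribosome biogenesis genes 0 of 28 and 10. Ubiquitin genes were higher, with 9 of 39 single, among them Uba1 (1270) and Cul3 (1925). The vacuolar ATPase had 3 of 33 single and 5 shared, and chaperones 3 of 38 and 5, with Hsp27 (157) first. Housekeeping genes were isolated less often, as with 15 of 69 for splicing and ribosome biogenesis, against 57.1% of all genes. Of isolated genes, 7 of 37 in the respiratory chain (18.9%) and 9 of 63 in membrane traffic (14.3%) had a single-gene peak. So did 5 of 29 in transcription machinery (17.2%) and 3 of 15 in splicing and ribosome biogenesis (20%), beside 12.4% of all isolated genes. The part of neighbours in these shares was not tested.

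Genes of differentiated cell products had almost none. No single-gene peak lay at 179 odorant, gustatory and ionotropic receptor genes, which allows a share of up to 1.68% by the limit of 3 counts and 2.10% by the Wilson interval, at 122 cuticle protein genes (up to 2.46% and 3.05%) or at 27 digestive serine protease genes (up to 11.1% and 12.5%). Of 51 odorant-binding protein genes 1 had a peak, Obp83g (rank 3981). Detoxification genes were low as well, with 3 of 85 cytochrome P450 genes, led by Cyp6v1 (2565), and 3 of 70 glutathione and UDP-glycosyl transferase genes, led by GstE13 (32). Of the 379 genes of differentiated cell products 297 were isolated, and 1 of these had a peak, against 12.4% of all isolated genes.

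**Figure D4:**
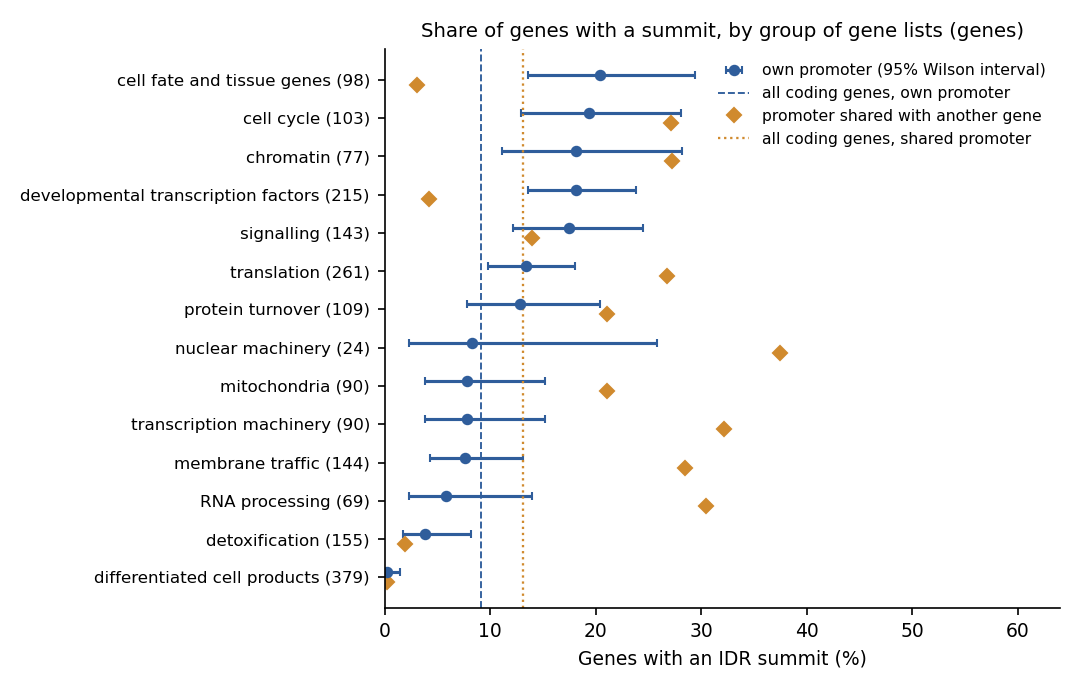
Share of genes (horizontal axis, %) with an IDR summit at a promoter of their own (blue circles, with 95% Wilson intervals for counting only) and at a promoter shared with another gene (orange diamonds), for 14 groups of gene lists with the number of genes in parentheses; the dashed and dotted lines are the shares over all protein-coding genes, 9.13% and 13.1%. Developmental transcription factors stand at 18.1% and 4.19%, and membrane traffic genes at 7.64% and 28.5%.

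Position relative to the TSS also differed by role. The summits at translation genes, all 36 of them upstream, lay a median of 114.5 bp from the TSS, with quartiles of 65.2 and 148 bp, and those at 7 respiratory chain peaks a median of 70 bp. At the 47 peaks of developmental transcription factors the median was 215 bp, with quartiles of 163 and 354 bp, and 42 were upstream. At the matched summits of translation genes, 91.2% were upstream in replicate 1 and 97.2% in replicate 2. In replicate 1 the medians were 102 bp for translation and 233 bp for transcription factors, and in replicate 2 they were 116 and 205.5 bp. Matched summits lie within 100 bp of the IDR summits by choice, so this order is no independent support. Signalling peaks lay at a median of 199 bp, and cell fate and tissue peaks at 215 bp.

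Motifs were counted in the 201 bp centred on each summit, on both strands, beside all 19607 windows of 201 bp just upstream of protein-coding TSSs. The DRE lay at 96 of the 1390 summits (6.91%, 5.69 to 8.36%), near the 6.17% of all promoters, and Motif 1 (GGTCACAC) at 63 (4.53%, 3.56 to 5.76%), against 3.28%. At shared promoters the shares were 10.5% and 6.37%, and inside genes 0.164% and 0.437%. Both motifs were concentrated near the TSS: the summits with a DRE lay a median of 74.5 bp from it, against 183 bp for those without, and the summits with Motif 1 58 bp, against 180 bp. Of summits up to 50 bp upstream, 19.2% had a DRE (13.3 to 27.0%) and 14.4% had Motif 1 (9.31 to 21.6%). Windows at the same offset from all coding TSSs that have no other coding gene within 500 bp held them in 4.49% and 3.85%.

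Farther out these shares were small. Of 269 summits 300 to 200 bp upstream, 6 had a DRE (2.23%) and 5 had Motif 1 (1.86%), while windows at that offset from all TSSs held them in 1.33% and 0.599%. The peaks with a DRE had a median rank of 2747, against 2253.5 without, and those with Motif 1 had 3028, against 2247. Peaks with either motif were thus weaker in the median, and in the strongest of the 4 parts by rank Motif 1 was present in 1.44%, against 6.32% in the weakest. Summits near the TSS were also weaker, counting peaks with and without a motif together. The median rank of all summits was 3196 up to 50 bp upstream and 2523 at 100 to 50 bp upstream, against 1782.5 at 200 to 150 bp. The part of position in the lower ranks of peaks with a motif was not tested.

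The Abd-B form TTTATTG was present at 161 summits (11.6%, 10.01 to 13.4%), against 8.82% of all promoters, and the form TTTATGG at 98 (7.05%, 5.82 to 8.52%), against 4.52%. Those promoter windows end at the TSS, and the shares depend on position: of 269 summits 300 to 200 bp upstream, TTTATTG was present at 9.29% (6.37 to 13.4%), against 10.4% of windows at that offset from all TSSs, and of 199 summits 100 to 50 bp upstream at 14.1% (9.92 to 19.6%), against 7.69%. The Hox core TAATTA stood at 18.7% (16.7 to 20.8%), against 14.1%, and the joint Hox and Exd site TGATTTAT at 3.02%, against 2.21%. These motifs are rich in A and T. The windows at the summits averaged 35.4 ± 7.45% GC (SD over 1390 peaks), while windows 150 to 100 bp upstream of all coding TSSs averaged 40.1%, and the part of base composition in these shares was not tested. Among the other IDR peaks, TTTATTG was present at 12.9% inside genes, 12.3% between genes and 11.8% at shared promoters, and TTTATGG at 8.52%, 9.89% and 5.40%. The Hox core was present at 18.8% inside genes and 17.3% between genes, and at 24.3% (21.6 to 27.2%) at shared promoters, an interval that does not overlap that of the single-gene peaks. Single-gene peaks with TTTATGG had a median rank of 2855.5, against 2272 without, and those with TTTATTG had 2069, against 2311.

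The TATA box sequence TATAAA lay at 36.9% of summits, against 33.5% of all promoters, and CGATA, the BEAF-32 motif that lies inside each DRE, at 35.6%, against 36.6%. Lower than in all promoters were GAGAG, the GAGA factor motif (19.0%, 17.0 to 21.1%, against 25.4%), and CAGCTG (7.70%, 6.41 to 9.22%, against 11.9%). The initiator core TCAGT lay at 30.9% (28.6 to 33.4%), against 33.4%. The Zelda motif CAGGTA lay at 3.45% (2.61 to 4.55%), against 4.33%. Both of these intervals include the share of all promoters. The share of TCAGT depended on position. Up to 50 bp upstream, 20% of summits had it (13.9 to 27.9%), against 45.7% of windows at that offset from all TSSs. At 400 to 300 bp upstream, 37.97% had it (30.8 to 45.7%), against 28.9%. At matched offsets the order for GAGAG changed with distance. It was present at 28.3% of summits 500 to 400 bp upstream (20.4 to 37.8%), against 20.7% of windows at that offset from all TSSs, and at 26.6% of those 400 to 300 bp upstream (20.3 to 34.0%), against 21.2%. At 150 to 100 bp upstream it was present at 14.4% of summits (10.1 to 20.0%), against 28.6%.

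Motif content varied with the role of the gene, and so did that of all promoters of these genes. GAGAG lay at 24 of 47 summits of developmental transcription factors (51.1%), beside 53.0% of all 385 promoters of that group, and at 2 of 36 summits of translation genes (5.56%), beside 11.6% of their 371 promoters. The DRE showed the opposite order, with 9 of 36 summits of translation genes (25%) beside 18.9% of their promoters, and 1 of 47 at transcription factors (2.13%) beside 1.56%. At the matched summits of each replicate, GAGAG was present at 55.6% of transcription factor peaks in replicate 1 and 50% in replicate 2, against 8.82% and 8.33% of translation peaks.

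**Figure D5:**
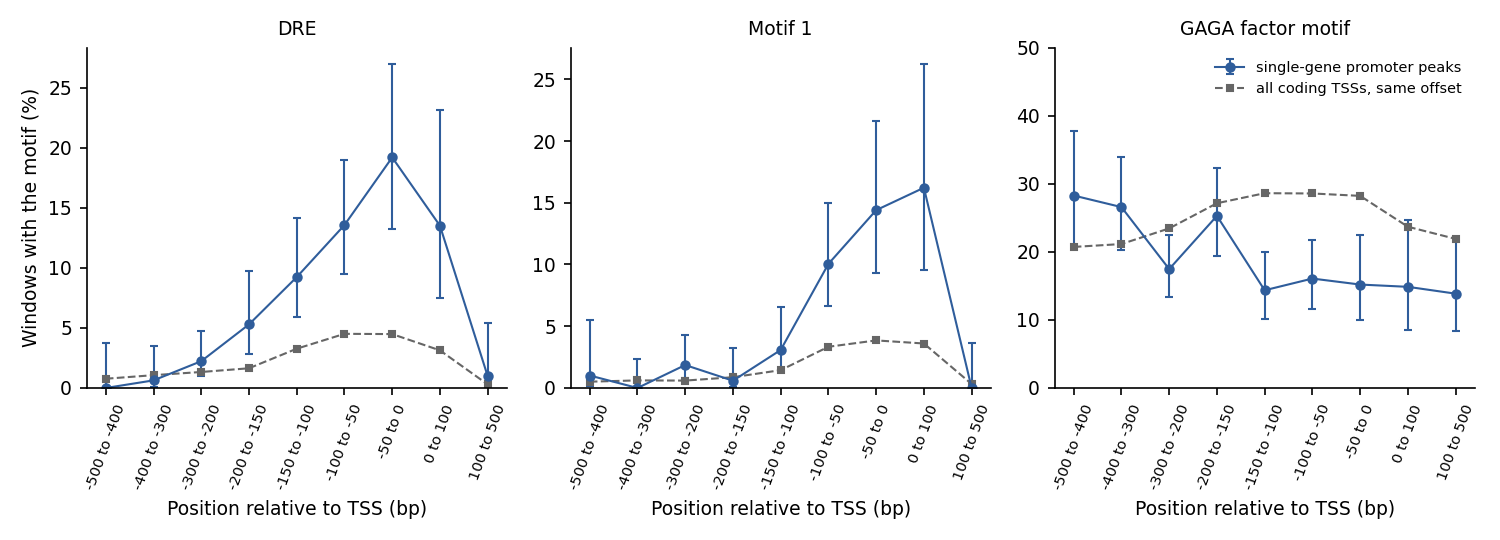
Share of 201 bp windows with the DRE, Motif 1 or the GAGA factor motif GAGAG (vertical axis, %) by position relative to the TSS (horizontal axis, bp); blue circles are windows at the summits of single-gene promoter peaks with 95% Wilson intervals for counting only, and grey squares are windows at the middle of each bin from all coding TSSs with no other coding gene within 500 bp. The DRE reaches 19.2% of summits up to 50 bp upstream, beside 4.49% of all such windows.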

How the data were processed

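ChIP-seq peaks of Abd-B-GFP in 2 replicates were analysed from lists on build dm6, per the labels. The deposited lists hold a signal value, of unstated scale, and the −log10 of a q-value for each peak; they were made by the authors per replicate, on pooled reads and after IDR thresholding, per the deposited text descriptions. No source used here names an aligner or peak caller, and read depth is unknown. In the IDR list, 66.3% of peaks are 390 bp wide with the summit in the middle. The share is 5.46% of the strongest 348 single-gene peaks and 98.0% of the weakest. Whether the summits of such peaks are placed less precisely was not tested.

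TSSs came from Ensembl release 115 (BDGP 6.54) and sequence from RefSeq, with no window printed from arm 2R; all peaks used fitted the arm lengths. Peaks were sorted by signal. Summits matched within 100 bp. Functions were tested on simulated data. The members, lists and motifs were chosen with earlier results of these data known. Named are genes of the 20 strongest peaks, up to 3 per list, Abd-B, genes with 3 or more peaks, and the best ranked unmatched, downstream and threshold cases. Of the listed symbols, 14 matched no gene and were left out. Nothing says whether the embryo collections were independent beyond the label of biological replicates. Tables were computed with pandas 2.3.3 and numpy 2.4.6, intervals with scipy 1.17.1 and figures with matplotlib 3.10.9, under Python 3.11.15.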

Additional observations from a re-analysis of the deposited data

How the results depend on the processing

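Of 104 values recomputed under other settings, 63 stayed within the counting interval of the reported value, or within 1.5 times it for a count. With a TSS window of 250 bp the median distance was 117 bp and the share at the most upstream TSS 51.2%, and with 1000 bp the median distance was 248 bp, the upstream share 79.4% and the first TSS share 35.8%; the window sets the distances it admits. With the most upstream TSS of each gene alone, the median distance was 154 bp, the upstream share 84.9% and the first TSS share, by construction, 100%. The 1000 strongest peaks gave 311 members at 302 genes with a median rank of 522, which follows from the shorter list. There the upstream share was 92.0%, the median distance 196 bp, support in both replicates 99.0% and the first TSS share 34.2%. Motif shares there were 5.47% for the DRE, 1.61% for Motif 1, 4.82% for CAGCTG, 33.1% for CGATA, 34.1% for TCAGT, 13.8% for TTTATTG and 1.93% for TGATTTAT; the cause was not tested.

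Leaving out one replicate gave support in the other of 85.4 to 90.03%, an upstream share of 84.4 to 87.5% and GAGAG at 18.8 to 21.3%. Support was 76.7% with a match within 50 bp, 97.2% within 250 bp and 72.8% among the 5033 strongest peaks of each replicate. Motif windows of 50 bp on either side, which hold fewer bases, gave 3.53% for the DRE, 2.16% for Motif 1, 3.53% for CAGCTG, 20.0% for CGATA, 21.9% for TATAAA, 16.5% for TCAGT, 8.27% for GAGAG, 1.29% for CAGGTA, 6.40% for TTTATTG, 3.02% for TTTATGG, 10.4% for TAATTA and 1.58% for TGATTTAT. Demanding 1 gene of any kind, transposable elements aside, moved no value beyond these limits. The matched summits of each replicate and the isolated genes were chosen as settings after seeing the data. No paired analysis was possible because there is 1 group. The lists give no depth, so a gene without a peak may have had too little signal.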

Other observations

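The shares at single-gene promoters and on their upstream side were lower farther down the pooled list. Its 5033 strongest peaks gave the same values as the IDR list, with 27.6% at a single-gene promoter and 87.4% of these upstream of the TSS. The number of members, 1390, and their median distance, 171.5 bp, were also the same. These therefore appear to be the same peaks and are no separate check of the IDR list. At ranks 5034 to 10000 the shares were 18.0% and 70.4% (67.4 to 73.3%), and at ranks 10001 to 15000 they were 12.7% and 59.7%. At ranks 25001 to 29999 they were 9.92%, beside 9.97% of the bases, and 42.1% (37.9 to 46.5%), beside 45.2% of the bases. The GC content of the windows around these summits was 35.4%, 39.4%, 42.1% and 45.3% in the same 4 parts.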
